A study of Rattus norvegicus with 90 samples.

Results

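The 200 genomic intervals described here gave RNA mainly in primary rat hepatocytes. Beside annotated transcripts, the deposited tables list stretches of Rnor_6.0 that have no name beyond their coordinates, of 1003 to 20000 bases. They were chosen from vehicle cultures at 9 h. Of 25072 intervals, 7308 had a hepatocyte mean of at least 0.5 CPM there, where CPM is the estimated count per 1000000 estimated counts on the transcripts of the same library. These were ranked by log2 of the hepatocyte mean over the larger of the means in renal tube epithelial cells and cardiomyocytes, with 0.1 CPM added to each, and the 200 highest were taken. The low level in the other cell types in vehicle cultures at 9 h is therefore the rule itself and not a finding.

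The samples were cultured cells of Sprague-Dawley rats, which received vehicle (the maintenance medium) or thioacetamide-S-oxide, the metabolite through which thioacetamide injures the liver, for 9 or 24 h. Hepatocytes received 0.025 mM (low) or 0.125 mM (high), renal cells 0.125 or 0.5 mM, and cardiomyocytes 0.5 or 1.5 mM, so that the low and high doses differ between cell types. Hepatocytes and renal cells were bought cryopreserved, and the origin of the cardiomyocytes is not given in the sources used here. Each of the 18 conditions has 5 libraries, 90 in all, made from poly-A RNA. Nothing at hand says that the 5 libraries of a condition came from separate animals, so p-values measure only the spread between these libraries.

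Hepatocytes are the main cells of the liver and make plasma proteins, bile acids and the enzymes that process drugs and toxicants. Much of a cell's RNA outside annotated transcripts comes from unannotated ends and introns of known genes or from long non-coding RNAs, and such RNA is often limited to few cell types. In culture, primary hepatocytes gradually lose much of their cell type-specific expression. The annotation needed to place these intervals in genes, exons or introns was not used here, so the intervals are named by position, and the cell types were not checked against marker genes.

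One hepatocyte library, MS-183 of the vehicle cultures at 24 h, stood apart from the rest. It held 249303 counts on transcripts, 8.33% of its counts, whereas the other 89 libraries held 84.1% to 95.3% of their 11415793 to 61896766 counts there. The 200 intervals summed to 80931 CPM in library MS-183 and to 4194 to 5519 CPM in the other 4 libraries of its group, and 190 intervals were higher in it than in all 4. CPM divides by transcript counts, and 91.7% of the counts of MS-183 lay on intervals. The CPM summed over all intervals was therefore raised in it too, and these values show nothing particular to the 200. Library MS-183 was left out of the main comparisons, and the values with it are given beside those it changed. The remaining vehicle libraries at 24 h are MS-181, MS-182, MS-184 and MS-185, whereas the exposed hepatocyte libraries at 24 h are MS-111 to MS-120 and those of 9 h are MS-91 to MS-105. Whether these sets were handled together is not given in the sources used here, so a difference between the sets cannot be told apart from the effect of exposure at 24 h. Over transcripts, 4 further libraries differed from each library of their group by at least 3 times the largest difference among the rest of it, a rule set after seeing the data. The chi-square per degree of freedom was 421 to 709 for pairs with MS-145 (renal cells, low, 24 h), 732 to 1122 with MS-158 (cardiomyocytes, low, 9 h) and 401 to 727 with MS-172 (cardiomyocytes, low, 24 h), against at most 103.6 among the rest of these groups, and 72.6 to 92.1 with MS-120 (hepatocytes, high, 24 h) against at most 19.1. They were kept, and values that rest on them are given without them too. Libraries MS-97, MS-105, MS-132, MS-168 and MS-179 also differed more from their groups than the rest did among themselves, but by 1.08 to 1.88 times. The share of counts on intervals was 6.46% to 15.9% in the 4 vehicle libraries kept at 24 h and 5.68% to 9.78% in the other 25 hepatocyte libraries.

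The 200 intervals spanned a wide range of abundance in hepatocyte vehicle cultures at 9 h. Their means ran from 1.21 to 2211 CPM with a median of 6.33 CPM, 66 of them reached 10 CPM and 7 reached 100 CPM. Together they summed to 6079 ± 139.2 CPM (SD, n = 5), which was 7.86% of the CPM on all intervals. A single interval, chr1:141087906-141097194, held 36.4% of that sum, and the 7 most abundant held 67.6%. The medians were 0.132 CPM in renal cells and 0.108 CPM in cardiomyocytes, as the rule required. For comparing levels between intervals, values per kilobase of effective length are needed. On that scale chr1:141087906-141097194 was highest with 242 CPM per kilobase, followed by chr2:225848376-225854129 (40.6), chr8:60703039-60709350 (38.3), chr1:263613753-263625000 (33.6) and chr6:128081390-128083532 (29.7). Only 8 intervals reached 10 CPM per kilobase, and the median was 0.458.

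The 5 intervals at the top of the ranking were chr1:263613753-263625000 (rank 1), chr6:128081390-128083532 (rank 2), chr15:103957565-103977564 (rank 3), chr11:65761075-65781074 (rank 4) and chr14:17235213-17246861 (rank 5). Just inside the limit of 200 lay chr8:50539877-50558625, chr19:58170379-58190378 and chr10:39373938-39390080, with ranking values of 3.57, 3.56 and 3.55 on the log2 scale. Just outside lay chr10:37504682-37524681, chr1:229373831-229393830 and chr5:50362845-50371231, with 3.54, 3.54 and 3.54. The limit thus cuts through a continuous series and marks no gap.

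The 200 were about as long as other intervals. The full length of 20000 bases was reached by 54% of them and by 55.5% of the intervals that were not chosen. They lay on 21 chromosomes, with the most on chromosome 1 (21 intervals) and the largest shares on chromosome 13 (15 intervals, 1.94% of the intervals there) and chromosome 17 (15 intervals, 1.89%). Estimated counts were whole numbers, within 0.001, in all 29 hepatocyte libraries other than MS-183 for 3 of the 200 and in none for 160, so reads of most of these intervals were divided with other targets and the levels are estimates of that division. Among 7108 other intervals with at least 0.5 CPM in hepatocytes, 287 were whole in all and 5670 in none.

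**Figure D1:**
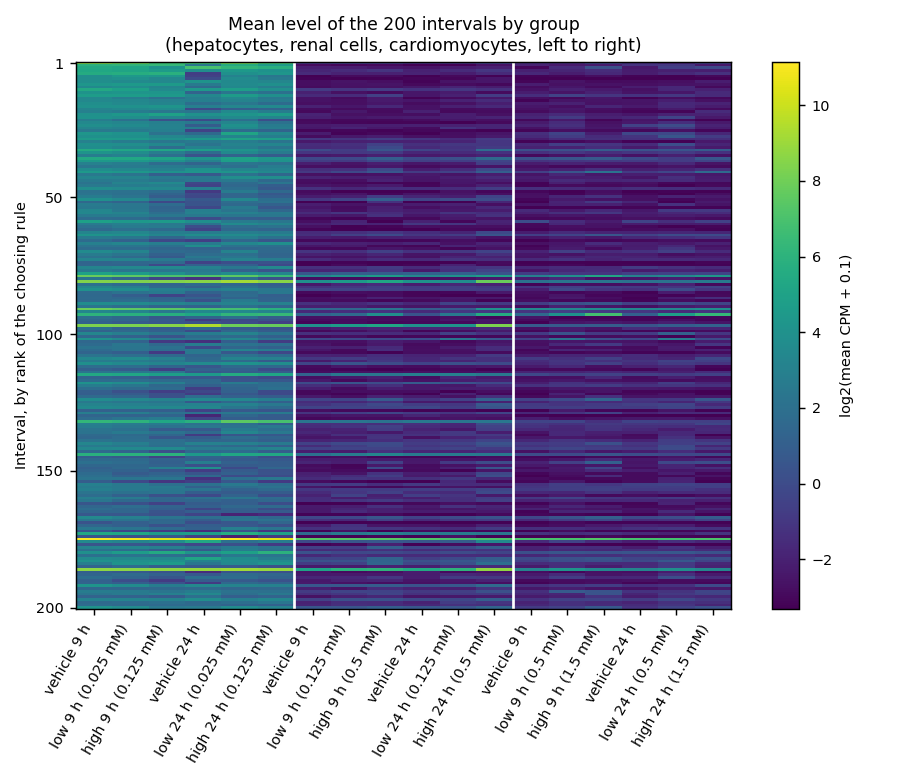
Mean level of each of the 200 intervals (rows, by rank of the choosing rule) in the 18 groups (columns, with the dose in mM), as log2(CPM + 0.1), without hepatocyte library MS-183. The 6 hepatocyte columns are brighter than the other 12 for nearly all rows, and a few rows brighten in renal cells at the high dose at 24 h.

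The 200 intervals were again highest in hepatocytes in vehicle cultures at 24 h, which the rule did not use. The hepatocyte mean was higher than both other means for 199 of the 200, and at least 10 times both, with 0.1 CPM added, for 51% of them. The same counts over intervals outside the 200 are not given here, so these describe the 200 alone. The exception was chr16:81798316-81802609, with 0.0533, 0.0709, 0.156 and 0.442 CPM in the 4 hepatocyte libraries and 0.0747, 0.148, 0.193, 0.237 and 0.280 CPM in the 5 renal libraries. These overlap, and none of the 5 cardiomyocyte libraries had a count.

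Tests in edgeR included 86% of the 200 against renal cells and 84.5% against cardiomyocytes, because the others had too few counts. Every adjusted p-value comes from the quasi-likelihood test of edgeR and was adjusted by Benjamini-Hochberg over all targets tested. A call needed a change past 0.41 on the natural-log scale (about 1.5-fold) and an adjusted p no higher than 0.05. Shares given for intervals outside the 200 are, here and in all later comparisons, of those that passed the same filter. Against renal cells 98.8% of the tested intervals were called higher and 0 lower, beside 47.5% higher and 16.5% lower of the 8878 tested outside the 200. Against cardiomyocytes 100% of the tested intervals were called higher and 0 lower, beside 43.1% and 20% of the 8532 tested outside. DESeq2 and limma also called 0 lower in either, and the lowest log2 fold changes were 0.66 and 1.37, so that 0 were lower at an unadjusted p under 0.05. An interval near 0 in one cell type could enter the test only by being high in hepatocytes, so these counts are a description and no measure of how many stay specific. The pair not called against renal cells was chr10:67490373-67494484 (log2 fold change 0.66, SE 0.83, adjusted p = 0.487) and chr17:8429839-8434802 (log2 fold change 0.68, SE 0.29, adjusted p = 0.0512), which are named after their values were seen. With library MS-183 included 81.5% of the 200 were called higher against each of the other cell types.

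The interval of rank 3, chr15:103957565-103977564, had the largest difference between cell types at 24 h. It measured 96.6, 111.4, 125.9 and 146.98 CPM in the 4 hepatocyte libraries, 0, 0.0771, 0.0791, 0.0903 and 0.0945 CPM in renal cells and 0.0499, 0.0872, 0.0887, 0.101 and 0.164 CPM in cardiomyocytes. Every hepatocyte library was far above every other library (against renal cells log2 fold change 10.90, SE 0.23, adjusted p = 7.37e-12). The interval of rank 2, chr6:128081390-128083532, measured 4.84, 4.89, 5.74 and 5.96 CPM in hepatocytes and had no count in the 5 renal libraries. Against a limit of 3 counts over those libraries, 0.0257 CPM, it was at least 208-fold higher. Intervals chr8:3396335-3416334 against renal cells (16.9 and 0.00895 CPM) and chr12:19535543-19555542 against cardiomyocytes (7.31 and 0.00654 CPM) rested on about 1 count in the other cell type. These limits and intervals cover counting error only. In such bulk samples fewer cells of a type and less RNA per cell cannot be told apart.

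The vehicle libraries at 9 h chose the intervals for their level in hepatocytes, so values beside them are a description with no test. The sum of the 200 was 6079 ± 139.2 CPM in vehicle cultures, 5417 ± 209 CPM at the low dose and 4557 ± 107 CPM at the high dose (SD, n = 5). Of the groups that the rule did not use, the low dose ranged from 5146 to 5601 CPM and the high dose from 4429 to 4682 CPM, without overlap. The means were ordered vehicle, low, high from highest to lowest for 62.5% of the 200 and in the reverse order for 12%. The median log2 ratio to vehicle was -0.17 for low and -0.54 for high exposure, with 14 and 96 intervals down by at least 1.5-fold and 6 and 9 up. Over the other 7108 intervals with at least 0.5 CPM the medians were 0.07 and -0.04. The orderings and the 1.5-fold counts are not given for those intervals. Choosing by high vehicle values by itself favours vehicle above the exposed cultures, so these counts show no dose trend on their own.

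**Figure D2:**
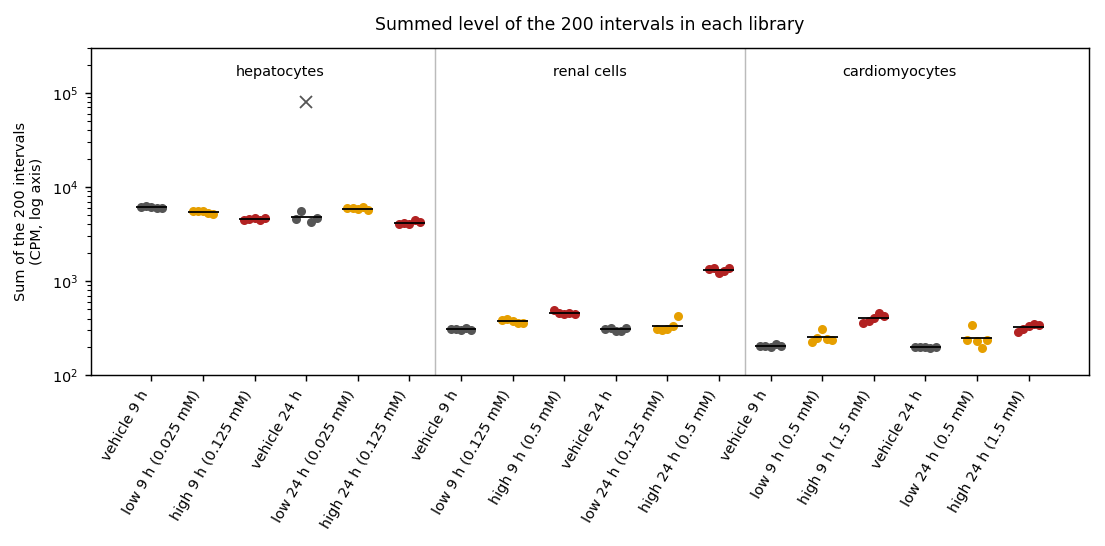
Sum of the 200 intervals in each library (points, CPM on a log axis) by group, with the group mean (line). The cross is hepatocyte library MS-183, which is left out of its mean. Hepatocyte sums lie between 4017 and 6284 CPM in the other libraries, renal cells at the high dose at 24 h lie between 1224 and 1387 CPM, and the highest of the remaining libraries reaches 487 CPM.

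Between the high and the low dose, which the rule did not use, more intervals were lower than higher at the high dose. At 9 h all 200 passed the filter on low counts, 66 were called lower and 5 higher at the high dose, and the rest were not called. With 1 library left out in turn the number higher was 4 to 8, the 8 being without MS-100 or without MS-101, and the number lower 60 to 69. The median log2 fold change was -0.36. Outside the 200, 5.24% of the intervals were called lower and 6.35% higher. At 24 h 198 passed, 67 were called lower and 10 higher, with a median of -0.44, and outside the 200 the shares were 6.59% and 10.3%. Without library MS-120, 74 were called lower and 9 higher at 24 h. With no fold threshold the shares at 9 h were 50.5% lower and 8.5% higher. Abundant and scarce intervals both took part: of the 66 with at least 10 CPM in vehicle cultures at 9 h, 18 were lower at 9 h and 24 at 24 h, and of the remainder these counts were 48 and 43.

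These comparisons share no library, and 36 intervals were called lower in both, 54.5% of those at 9 h and 53.7% of those at 24 h. Of the 8418 intervals outside the 200 tested at both times, 38.8% of those lower at 9 h and 34% of those lower at 24 h were lower in both. A larger share of the 200 was called lower at each time, which by itself raises the overlap. The higher overlap therefore shows no closer agreement in the 200. A further 4 of the 200 were called higher in both, out of only 5 at 9 h and 10 at 24 h, and 0 were called in opposite directions. Outside the 200, 63.3% of those higher at 9 h and 37.8% of those higher at 24 h were higher in both. The sign was the same at both times for 79.8% of the 198 tested at both and for 70.7% outside, and it was negative at both for 66.7% and 33.7%. Across intervals, which are not independent of each other, the fold changes had a Pearson r of 0.62 among these 198 and of 0.63 outside.

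**Figure D3:**
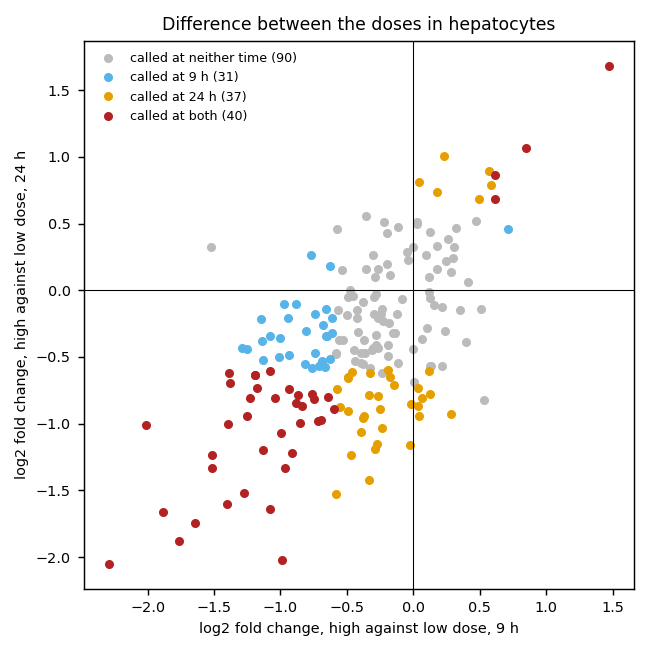
Log2 fold change between the high and the low dose in hepatocytes at 9 h (x axis) and 24 h (y axis) for the 198 intervals tested at both times, coloured by whether they were called at neither time (90), at 9 h (31), at 24 h (37) or at both (40). Most points lie in the lower left part of the plot.

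The top-ranked interval, chr1:263613753-263625000, shows the pattern. At 9 h it measured 319.6, 341, 399, 399.8 and 400.1 CPM with vehicle, 214, 219.9, 239, 248 and 269 CPM at the low dose and 90.02, 98.4, 104.5, 109 and 114.8 CPM at the high dose. The high dose lay below the low dose without overlap, and vehicle, whose values ranked this interval first, is given as a description (high against low: log2 fold change -1.13, SE 0.07, adjusted p = 8.17e-07). At 24 h it measured 226, 261, 268, 269 and 274 CPM at the low dose and 93.98, 107, 109.8, 116.3 and 129.1 CPM at the high dose. The fall from low to high was as large as at 9 h (log2 fold change -1.20, SE 0.07, adjusted p = 9.96e-07). The vehicle libraries at 24 h measured 79.3, 92.8, 108 and 131.7 CPM and lay with the high dose, not above the low dose.

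Interval chr2:25429931-25449930 had the largest fall between the doses at either time. It measured 1.10, 1.20, 2.54, 3.23 and 3.40 CPM at the low and 0.290, 0.390, 0.462, 0.508 and 0.539 CPM at the high dose at 9 h (log2 fold change -2.29, SE 0.35, adjusted p = 0.000454). At 24 h these were 1.32, 1.63, 1.77, 2.16 and 2.70 CPM and 0.221, 0.386, 0.442, 0.506 and 0.782 CPM (log2 fold change -2.05, SE 0.31, adjusted p = 0.000343). The low-dose libraries scatter, but none reaches down to the high-dose libraries at either time. Other large falls were those of chrX:110488111-110508110 at 9 h, from a mean of 1.89 to 0.450 CPM, of chr7:135418863-135438862 at 9 h, from 16.3 to 4.21 CPM, and at 24 h of chr1:229080911-229096982, from 6.02 to 1.45 CPM, and chr17:69618212-69634389, from 3.72 to 0.997 CPM. The most abundant interval, chr1:141087906-141097194, went from 2272 ± 67.8 CPM (SD, n = 5) to 1492 ± 144.7 CPM (SD, n = 5) at 24 h, a log2 fold change of -0.58 that stayed just under the fold threshold.

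A small group went the other way. Interval chr6:30003663-30023662 (rank 180) measured 13.9, 14.2, 16.0, 16.0 and 17.3 CPM with vehicle, 22.4, 22.9, 25.6, 27.3 and 28.8 CPM at the low dose and 40.0, 40.9, 42.6, 45.6 and 48.2 CPM at the high dose at 9 h. At 24 h it measured 15.0, 16.4, 18.5 and 22.8, then 27.4, 28.3, 28.7, 28.7 and 37.5, then 47.2, 53.5, 62.96, 70.0 and 76.0 CPM. The high dose lay above the low dose at both times without overlap, and at 24 h the low dose lay above vehicle (high against low: log2 fold change 0.84, SE 0.07, adjusted p = 7.9e-06 at 9 h and log2 fold change 1.07, SE 0.13, adjusted p = 9.49e-05 at 24 h). Interval chr3:147633303-147642750 had the largest rises between the doses, from 2.94 to 7.80 CPM at 9 h and from 0.837 to 2.63 CPM at 24 h. Further rises were those of chr3:2939385-2945004 at 9 h (19.98 to 31.2 CPM) and chr16:1986409-1996039 at 24 h (5.43 to 10.7 CPM). The others called higher at 9 h, chr1:5645829-5665828 and chr20:11546547-11554398, were also called at 24 h and make up, with chr6:30003663-30023662 and chr3:147633303-147642750, the 4 higher at both times. They are named after their values were seen, as are all intervals added below to complete a short list.

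**Figure D4:**
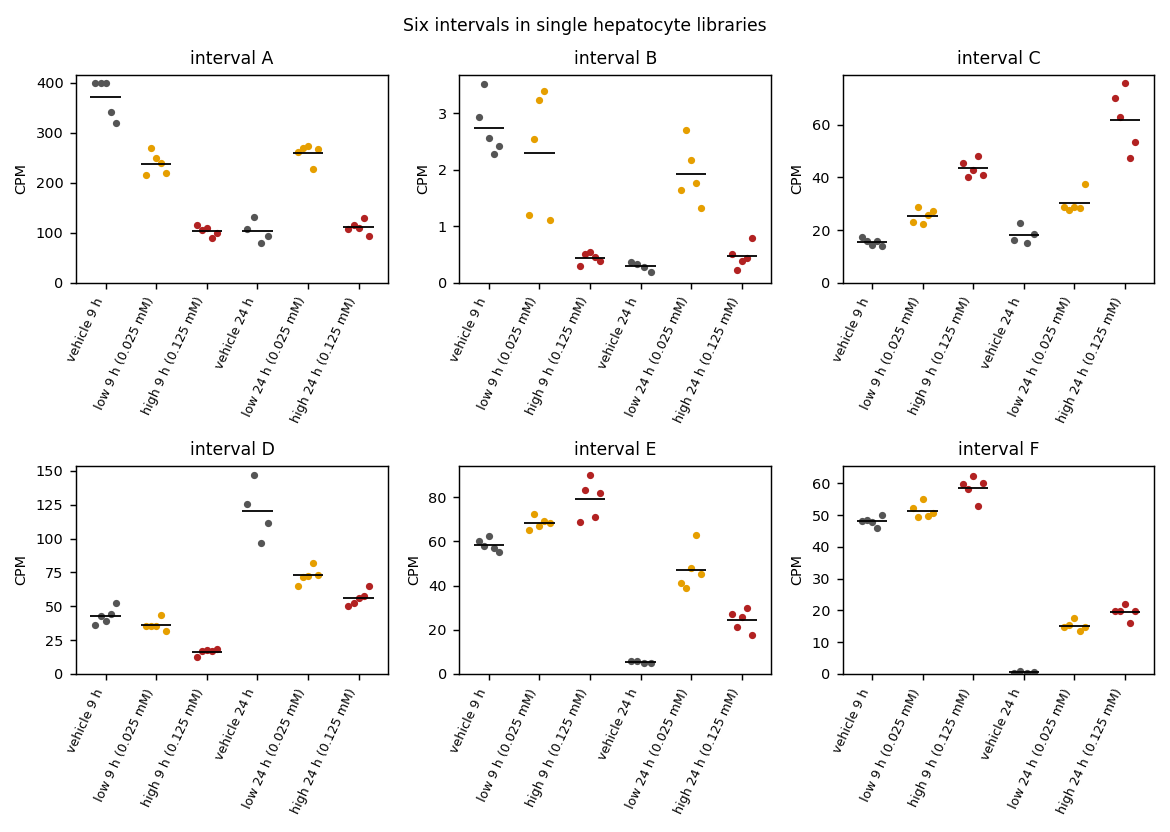
CPM of 6 intervals in single hepatocyte libraries (points) with the group mean (line), without library MS-183, for vehicle, low (0.025 mM) and high (0.125 mM) cultures at 9 and 24 h. Intervals A (chr1:263613753-263625000) and B (chr2:25429931-25449930) fall from low to high at both times, C (chr6:30003663-30023662) rises, and D, E and F (chr15:103957565-103977564, chr6:128081390-128083532 and chr14:17235213-17246861) have vehicle cultures at 24 h that lie outside both exposed groups of that time.

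Against vehicle cultures at 24 h the pattern was different, with more intervals higher in exposed than in vehicle cultures. At the low dose 199 passed the filter, 87 were called higher and 27 lower, and the median log2 fold change was 0.51, whereas outside the 200 10.8% of the intervals were called higher and 21.9% lower. At the high dose 198 passed, 64 were called higher and 42 lower, with a median of 0.14, and the shares outside were 10.1% and 14.7%. Without library MS-120 the high-dose counts were 59 and 44. The vehicle mean was below all 4 exposed hepatocyte means for 49% of the 200 and above all 4 for 14%, beside 25% and 32.5% of the other 7108 intervals with a hepatocyte mean of at least 0.5 CPM. Both comparisons share the 4 vehicle libraries with numbers apart from the rest, and with library MS-183 included only 3 intervals were called higher and 4 lower in each of them. Those higher were chr1:263613753-263625000, chr6:128081390-128083532 and chr17:8495997-8505495 with low exposure, and with high exposure the latter pair and chr20:11539500-11545013. Those lower were chr15:46297744-46316240 at both doses, chr3:147633303-147642750, chr1:5645829-5665828 and chr13:83985176-83991556 at the low dose, and chr17:14354123-14368646, chr4:123510718-123516287 and chrX:110488111-110508110 at the high dose.

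The interval of rank 5, chr14:17235213-17246861, differed most. Its 4 vehicle libraries at 24 h measured 0.243, 0.364, 0.519 and 0.918 CPM, the low-dose libraries 13.4, 14.8, 14.8, 15.3 and 17.6 CPM and the high-dose libraries 16.0, 19.7, 19.8, 19.8 and 22.1 CPM. Vehicle was near 0 and both doses were far above it (low against vehicle: log2 fold change 4.89, SE 0.25, adjusted p = 3.91e-08, and high against vehicle: log2 fold change 5.28, SE 0.28, adjusted p = 1.8e-07). At 9 h the vehicle cultures had measured 45.9, 47.8, 48.1, 48.4 and 50.01 CPM. Library MS-183 gave 528 CPM, and with it the sign turned at both doses. Similar differences were seen for chr16:81798316-81802609, with means of 0.180 CPM in vehicle, 2.70 at the low and 1.75 at the high dose, for chr4:125635416-125645361 at the low dose (0.579 and 8.45 CPM) and for chr14:5860082-5868136 at the high dose (0.318 and 5.47 CPM). These also turned sign with library MS-183.

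Among those lower in exposed cultures, chr3:147633303-147642750 measured 14.4, 14.4, 14.9 and 16.5 CPM in vehicle cultures, 0.587, 0.632, 0.656, 1.13 and 1.18 CPM at the low dose and 1.76, 2.45, 2.68, 2.97 and 3.29 CPM at the high dose. Vehicle was highest, the low dose lowest, and no groups overlapped (low against vehicle: log2 fold change -4.24, SE 0.20, adjusted p = 1.89e-08). Interval chr1:5645829-5665828 had means of 40.8 CPM in vehicle, 4.15 with low and 6.54 with high exposure, and chrX:110488111-110508110 had 5.34, 1.51 and 0.735 CPM.

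From 9 to 24 h, more intervals fell than rose at both doses. Time in culture and length of exposure change together here. The library numbers differ as well, with MS-96 to MS-105 at 9 h and MS-111 to MS-120 at 24 h, so these cannot be told apart. At the low dose 64 were lower and 20 higher at 24 h than at 9 h, with a median log2 fold change of -0.31, and outside the 200 10.5% of the intervals were lower and 8.05% higher. At the high dose 64 were lower and 23 higher, with a median of -0.23, and the shares outside were 8.14% and 8.71%. Without library MS-120 the high-dose counts were 68 lower and 20 higher. With no fold threshold the low-dose counts were 91 lower and 39 higher. Of the 64 lower at each dose 48 were the same intervals, 75% of either list, and 10 were higher at both doses, 50% of the low-dose and 43.5% of the high-dose list. Outside the 200 the shared intervals made up 38% and 52.1% of the lists of lower and 62.2% and 55.6% of the lists of higher intervals. More of the 200 than of the others were called lower, which by itself raises the shared part of those lists. In vehicle cultures, given with no test because the 9 h libraries chose the intervals, the median log2 ratio without library MS-183 was -0.84 and 61% of the 200 were down by at least 1.5-fold, where the other intervals had a median of 0.08.

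Interval chr1:258583602-258603601 was among the 3 largest falls at both doses. It measured 9.74, 10.6, 10.8, 11.2 and 11.47 CPM at the low dose at 9 h and 1.67, 1.77, 1.84, 1.99 and 2.14 CPM at 24 h (log2 fold change -2.54, SE 0.10, adjusted p = 2.22e-09). At the high dose these were 11.0, 12.0, 12.4, 12.5 and 15.4 CPM and 1.95, 2.35, 2.35, 2.36 and 2.67 CPM (log2 fold change -2.53, SE 0.13, adjusted p = 1.36e-07). Each 24 h library was below each 9 h library at either dose. Also among the largest falls were chr1:148181565-148201564 (1.12 to 0.139 CPM) and chr20:40773850-40778426 (1.45 to 0.176 CPM) at the low dose, and chr17:14354123-14368646 (10.3 to 1.58 CPM) and chr1:12908683-12915234 (23.7 to 5.02 CPM) at the high dose.

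In the other direction, chr19:56482283-56502282 measured 53.4, 58.9, 69.5, 70.6 and 71.0 CPM at 9 h and 157.6, 165.1, 188, 189 and 191 CPM at 24 h at the low dose, and 39.2, 39.5, 39.5, 40.2 and 41.3 CPM and 113.5, 115.98, 116.2, 129.8 and 135.6 CPM at the high dose. It rose at both doses without overlap (log2 fold change 1.43, SE 0.09, adjusted p = 1.1e-07 at the low dose). The 4 vehicle libraries at 24 h gave 52.3, 55.0, 57.2 and 72.2 CPM, and those at 9 h 68.98, 70.3, 80.9, 81.8 and 84.0 CPM, which overlap. Interval chr15:103957565-103977564 rose from 36.3 to 72.9 CPM at the low dose and from 16.4 to 56.4 CPM at the high dose, chr7:135418863-135438862 from 16.3 to 34.8 CPM at the low dose, and chr1:214394913-214407600 from 0.786 to 4.35 CPM at the high dose.

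Whether the difference between the doses itself changed with time was tested as an interaction. It differed for 33 intervals, higher at 24 h for 17 and lower for 16, where 1.5% and 0.75% of the intervals outside the 200 were called. Without library MS-120 the counts were 13 and 19. The interval of rank 2, chr6:128081390-128083532, had the largest change. It measured 64.97, 67.0, 68.1, 69.1 and 72.5 CPM at the low and 68.8, 70.9, 82.0, 83.1 and 89.9 CPM at the high dose at 9 h, and 39.1, 41.1, 45.1, 47.8 and 62.9 CPM against 17.8, 21.4, 26.0, 27.2 and 29.7 CPM at 24 h. The high dose was slightly above the low dose at 9 h, with libraries of the doses overlapping, and well below it at 24 h (difference of the log2 fold changes -1.20, SE 0.17, adjusted p = 0.000136). Downward changes were also called for chr17:14354123-14368646 (-1.12) and chr2:182014264-182026614 (-1.08), and upward ones for chr19:52070252-52076609 (1.04), chr14:44503347-44506718 (1.04) and chr17:43545357-43565356 (0.94), all as differences of log2 fold changes. The call for chr19:52070252-52076609 was lost with a filter of at least 1 count (adjusted p = 0.0527) and without library MS-96, MS-113, MS-115 or MS-117 (adjusted p of 0.0505 to 0.0548 in edgeR), with the value still 0.86 or more.

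Neighbouring intervals often moved together. Within 20000 bases of another member lay 19 of the 200, in 9 runs. Over the 24 hepatocyte libraries outside vehicle at 9 h and library MS-183, the 10 neighbouring pairs had a median Pearson r of 0.784 (0.0969 to 0.976) in log2(CPM + 0.1), whereas the median over all 19900 pairs of the 200 was 0.27. These libraries span 5 conditions, so the values describe changes across conditions, and the part that shared reads have in them was not tested. The longest run held 3 members between chr17:69599644-69653670, with r of 0.764 and 0.804 between neighbours, and its middle member is one of the largest falls between the doses at 24 h. The other 8 runs were pairs. The highest r was that of chr12:16248148-16258829 with chr12:16262585-16282584 (0.976), followed by chr6:128081390-128083532 with chr6:128084665-128092972 (0.97), and the lowest that of chr7:71077883-71097882 with chr7:71104918-71124420 (0.0969).

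Some intervals chosen for hepatocytes rose strongly in the other cell types on exposure. In renal cells the sum of the 200 was 308 ± 9.17 CPM in vehicle cultures at 24 h and 1322 ± 67.9 CPM at 0.5 mM (SD, n = 5). The comparison was added after these values were seen. Of the 200, 64 passed the filter, and of these 37 were called higher (57.8%) and 3 lower (4.69%), beside 23.4% and 9.44% of the 7270 tested outside the 200. An interval absent from vehicle cultures could pass only by rising, and 19 of the 37 had a vehicle mean of at least 0.5 CPM, of 34 such intervals in all. Most of the rise in the sum came from 3 intervals, which made up 25.3% of it in vehicle cultures and 74% at the high dose. Without them the sum was 230 ± 4.03 and 344 ± 12.9 CPM.

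Interval chr8:39738315-39758314 measured 37.8, 37.8, 39.1, 51.5 and 57.7 CPM in renal vehicle cultures and 325, 357, 429, 456 and 578 CPM at the high dose (log2 fold change 3.20, SE 0.21, adjusted p = 3.4e-07). Interval chr15:46297744-46316240 measured 13.9, 14.4, 15.4, 15.5 and 18.8 and 287, 292, 308, 332 and 363 CPM (log2 fold change 4.28, SE 0.09, adjusted p = 1.41e-10). Interval chr12:13759859-13779858 measured 14.3, 16.2, 17.2, 19.4 and 19.6 and 129.4, 197, 249, 259 and 329.9 CPM (log2 fold change 3.69, SE 0.22, adjusted p = 1.47e-07). All 3 were among the 5 most abundant of the 200 in hepatocytes, and their means in exposed renal cells were 429, 317 and 233 CPM, beside hepatocyte means of 484, 222 and 375 CPM at 0.125 mM. Without library MS-120 the hepatocyte means were 419.9, 221.7 and 386.5 CPM, so that the renal mean was the higher for chr15:46297744-46316240 either way and for chr8:39738315-39758314 only without that library. At 0.125 mM, the dose that both cell types received, the renal means at 24 h were 67.3, 18.1 and 12.9 CPM, or 48.2, 16.3 and 14.48 CPM without library MS-145. In cardiomyocytes at 1.5 mM for 24 h they were 9.90, 2.37 and 5.97 CPM, where chr15:46297744-46316240 was called higher than with vehicle (log2 fold change 0.95, SE 0.29, adjusted p = 0.0314).

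Interval chr8:100191733-100211732 rose at the high dose in both of the other cell types. It measured 1.04, 1.08, 1.23, 1.47 and 1.52 CPM in renal vehicle cultures and 43.9, 44.6, 45.4, 47.3 and 55.4 CPM at the high dose at 24 h (log2 fold change 5.15, SE 0.13, adjusted p = 2.68e-10). In cardiomyocytes it measured 1.47, 1.55, 2.18, 2.61 and 2.73 and 64.3, 68.1, 78.3, 91.2 and 97.9 CPM (log2 fold change 5.20, SE 0.19, adjusted p = 7.07e-09). No high-dose library of either cell type overlapped with vehicle at 24 h, and at 9 h the cardiomyocyte mean of 115.02 CPM was above the hepatocyte mean of 54.0 CPM under the high-dose label. The means at the low dose at 24 h also lay above the vehicle values. They were 4.50 CPM in renal cells without library MS-145 and 16.6 CPM in cardiomyocytes without library MS-172, and were not tested. Hepatocytes measured 35.1, 36.4, 38.2 and 38.7 CPM with vehicle and 71.1, 73.6, 74.2, 79.1 and 113.7 CPM at the high dose at 24 h. The hepatocyte mean at the high dose was 82.3 CPM, or 74.5 CPM without library MS-120, which is below the cardiomyocyte mean of 80.0 CPM.

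In cardiomyocytes 46 of the 200 passed the filter at 24 h. Of these 8 were called higher (17.4%) and 2 lower (4.35%) at 1.5 mM, beside 4.36% and 3.76% of the 6667 tested outside. Leaving out 1 library in turn gave 7 to 12 higher and 2 lower. Library MS-178 of the high-dose group had a count for only 78 of the 200, the fewest of any library. As in renal cells, an interval absent from vehicle cultures could pass only by rising. These shares therefore show no enrichment on their own, and a count with a vehicle minimum is not given here. All 8 were also called higher in renal cells, where they make up 8 of 37. Outside the 200, 36.7% of those higher in cardiomyocytes and tested in both were higher in renal cells too. The limit of the filter holds for this overlap as well. A larger share of the 200 was called higher in renal cells, which by itself raises it. Beside chr8:100191733-100211732 the 8 include chr8:45017425-45037424 (log2 fold change 2.64, SE 0.24, adjusted p = 9.23e-06 in cardiomyocytes and 1.97 on the log2 scale in renal cells). They also include chr10:39373938-39390080 (log2 fold change 1.68, SE 0.27, adjusted p = 0.000855 in cardiomyocytes and 0.79 in renal cells). The neighbours chr12:16248148-16258829 and chr12:16262585-16282584 fell in renal cells, as did chr17:8429839-8434802, the neighbours from 1.67 to 0.804 CPM and from 2.20 to 1.15 CPM. Lower in cardiomyocytes were chr7:135418863-135438862 (log2 fold change -1.78) and chr13:80819719-80836919 (-1.69). Interval chr3:147633303-147642750 went from 0.0475 to 1.33 CPM in renal cells, with no more than about 2 counts in any vehicle library.

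**Figure D5:**
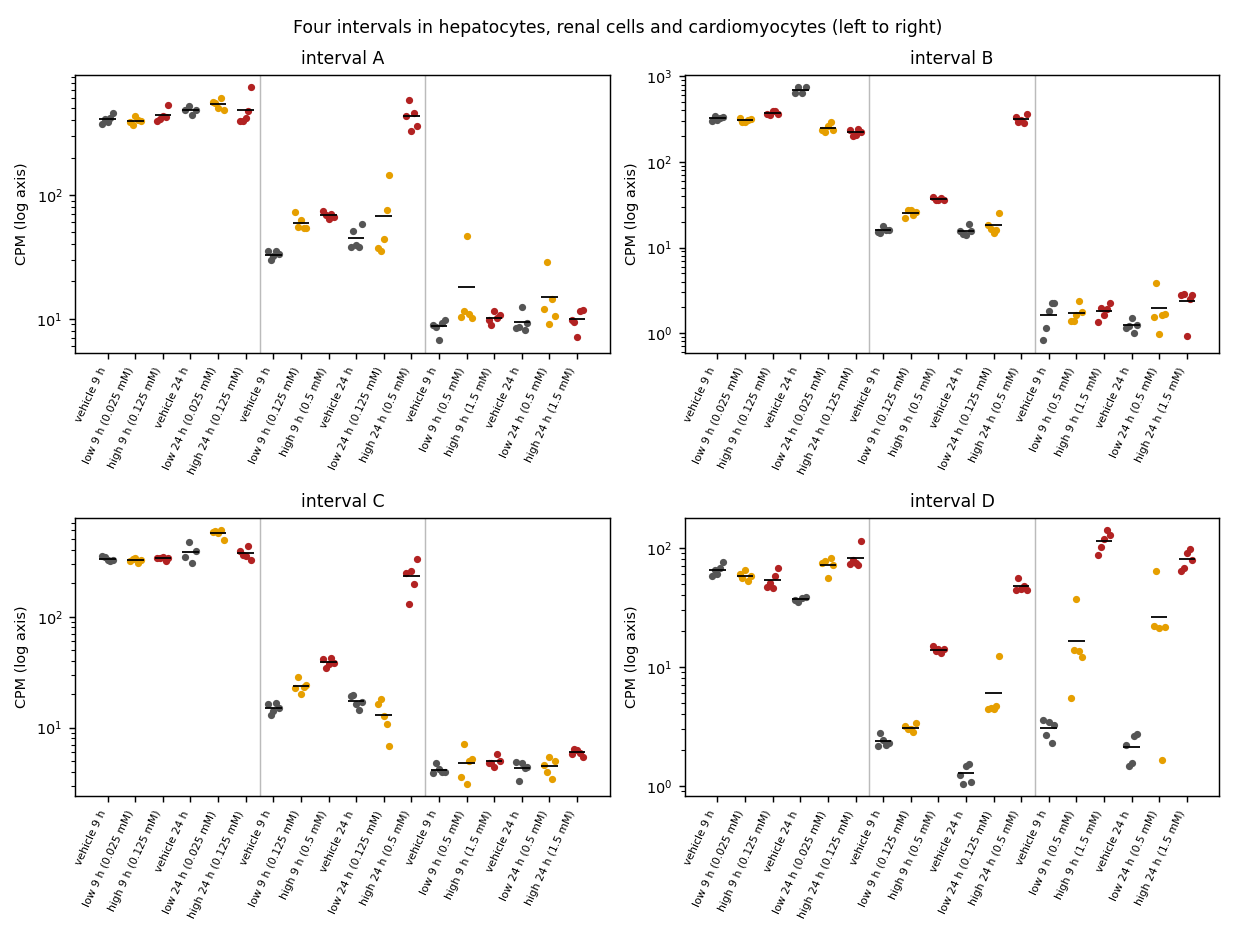
CPM of 4 intervals (points, log axis) in single libraries of the 18 groups, with the group mean (line), without hepatocyte library MS-183. Intervals A, B and C (chr8:39738315-39758314, chr15:46297744-46316240 and chr12:13759859-13779858) rise in renal cells at 0.5 mM at 24 h and have cardiomyocyte means of 1.23 to 17.9 CPM (at most 11.48 without MS-158 and MS-172), D (chr8:100191733-100211732) rises at the high dose in both of the other cell types, and B was called higher in cardiomyocytes too.

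Under exposure the hepatocyte mean therefore did not stay above both other cell types for every interval. With the high-dose labels at 24 h it was above both for 197 of the 200, the exceptions being chr15:46297744-46316240, chr7:107238234-107258233 and chr1:5645829-5665828 (all higher in renal cells), and at least 10 times both, with 0.1 CPM added, for 79. Without library MS-120 it was above both for 97.5% of the 200 and at least 10 times both for 40%. The exceptions then were chr15:46297744-46316240, chr1:5645829-5665828, chrX:106155083-106175082, chr8:39738315-39758314 and chr8:100191733-100211732. With the low-dose labels at 24 h it was above both for all 200 and at least 10 times both for 58.5% of them, or for 68.5% without libraries MS-145 and MS-172. The doses behind the labels differ between the cell types, so these are values side by side. The same counts over intervals outside the 200 are not given here.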

How the data were processed

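RNA-seq was analysed in 90 libraries of 3 rat cell types, 5 per group, with groups taken from the sample titles. The deposited tables, 1 per library, hold the authors' estimated count and TPM of each target beside its length and effective length. Per the labels, kallisto 0.42.4 and the build Rnor_6.0 appear in the submitters' processing notes. The study describes alignment to transcripts only, and how the intervals were defined is not given in the sources used here. The deposited TPM values were not tested, because their total includes the intervals.

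CPM was computed here per 1000000 estimated counts on transcripts. Estimated counts of all targets, without 23 intervals named Y_, were rounded and fitted in edgeR 4.0.16 (filterByExpr, library size and TMM factors from the transcripts, quasi-likelihood test) on the groups of each comparison, with Benjamini-Hochberg adjustment over all targets tested. Depth was 11415793 to 61896766 counts in 89 libraries. Hepatocyte library MS-183 was left out of the main fits. The 180 pairs of libraries within groups had a chi-square per degree of freedom of 3.55 or more, so all were counted separately, and the libraries that stand apart are given with the results. Scripts were tested on simulated data.

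The 200 intervals and all lists were chosen with earlier results of these data known. Named are the 5 highest in rank and in level, up to 3 called increases and decreases per comparison without overlap of the groups and with at least 1 CPM in one of them, those beside the rank limit and the members of the longest runs. Alternatives were DESeq2 1.42.0, limma 3.58.1 on log2(CPM + 0.5), other normalizations and filters, no fold threshold, each library left out, and library MS-183 included. The comparisons in exposed renal cells and cardiomyocytes, with their alternatives, were added after seeing the data. The transcripts could not be matched to gene symbols with the table used here (assembly GRCr8), so markers were not scored.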

Additional observations from a re-analysis of the deposited data

Results flagged for a closer look

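Dixon's criterion was applied to the summed CPM in each of the 18 groups and to 40 named intervals in the hepatocyte groups, 258 sets of 4 or 5 values in all. In these, 23 values from 17 libraries lay apart from the rest of their set, and chance alone gives about 1 in 20 sets. Library MS-183 of hepatocyte vehicle cultures at 24 h was the most extreme, with a sum over the 200 intervals of 80931 CPM against 4194 to 5519 CPM in the other 4. Its CPM values divide by only 249303 transcript counts, and it entered none of the main comparisons.

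In the other cell types the sums that stood apart were 344 CPM in library MS-172 of cardiomyocytes at the low dose at 24 h (others 196 to 235), 308 CPM in library MS-158 of cardiomyocytes at the low dose at 9 h (others 228 to 248), 487 CPM in library MS-131 of renal cells at the high dose at 9 h (others 451 to 461) and 430.4 CPM in library MS-145 of renal cells, low dose, 24 h (others 301 to 334).

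Library MS-120, of hepatocytes at the high dose at 24 h, stood apart for 4 of the named intervals. It gave 738 CPM for chr8:39738315-39758314 (others 391 to 477), 12.0 CPM for chr4:125635416-125645361 (others 1.62 to 4.56), 113.7 CPM for chr8:100191733-100211732 (others 71.1 to 79.1) and 6.95 CPM for chr8:45017425-45037424 (others 11.8 to 13.4). In the same group library MS-117 gave 7.43 CPM for chr10:39373938-39390080.

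Library MS-182, of vehicle cultures at 24 h, stood apart for 3 intervals, with 0.534 CPM for chr14:5860082-5868136 (others 0.215 to 0.266), 2.10 CPM for chr17:69618212-69634389 (others 0.419 to 0.471) and 4.04 CPM for chr12:16248148-16258829 (others 2.78 to 2.88). Library MS-184 gave 19.0 CPM for chr3:2939385-2945004.

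At the low dose at 24 h, library MS-114 gave 226 CPM for chr1:263613753-263625000 (others 261 to 274) and 6.70 CPM for chr1:5645829-5665828 (others 3.21 to 3.89), library MS-111 gave 4.46 CPM for chr14:5860082-5868136, and library MS-115 gave 37.5 CPM for chr6:30003663-30023662 (others 27.4 to 28.7). At 9 h the values were 12.7 CPM in library MS-101 for chr15:103957565-103977564, 526 CPM in library MS-105 for chr8:39738315-39758314 and 13.0 CPM in library MS-104 for chr17:14354123-14368646 at the high dose, and 11.8 CPM in library MS-99 for chr1:5645829-5665828 and 14.7 CPM in library MS-97 for chr8:45017425-45037424 at the low dose.

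The difference between the doses changed from 9 to 24 h, by the interaction test, for 33 of the 200 intervals. The 6 named among them had differences of log2 fold changes of 1.04 (chr19:52070252-52076609), 1.04 (chr14:44503347-44506718), 0.94 (chr17:43545357-43565356), -1.20 (chr6:128081390-128083532), -1.12 (chr17:14354123-14368646) and -1.08 (chr2:182014264-182026614).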

How the results depend on the processing

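With library MS-183 included, 3.5% of the 200 intervals were called against vehicle at 24 h for low and again for high exposure, instead of 57% and 53%, and the log2 fold changes reversed for chr14:17235213-17246861 (-2.67 for low and -2.37 for high), chr16:81798316-81802609 (-3.77 and -4.45), chr4:125635416-125645361 (-2.53, low) and chr14:5860082-5868136 (-3.18, high). The mean sum of that group was then 19981 CPM instead of 4743. With no fold threshold 59% were called between the doses at 9 h, instead of 35.5%, and 65% between 24 and 9 h for low exposure, instead of 42%. All other shares called stayed within 1.5 times the main one under the alternatives that were run.

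Leaving out 1 library at a time gave calls for 84% to 88.5% of the 200 against renal cells, 83.5% to 87.5% against cardiomyocytes, 54.5% to 62.5% for low and 45.5% to 51.5% for high exposure against vehicle at 24 h, 35% to 41.5% between the doses at 24 h and 32% to 38.5% at 9 h, 38.5% to 45.5% with time for low and 40% to 44% for high exposure, 13% to 17.5% for the interaction, 19.5% to 23% in exposed renal cells and 4.5% to 7% in exposed cardiomyocytes. The cause of these differences was not tested. No paired analysis was possible because the groups share no library numbers. Most intervals divide their reads with other targets, and in renal cells and cardiomyocytes only 32% and 23% of the 200 had enough counts to be tested for exposure.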
